A study of Mus musculus with 12 samples.

Results

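Long noncoding RNAs are spliced or unspliced transcripts that carry no protein-coding frame, and 8 of them are described here in mouse brain cells sorted and labelled as astrocytes: Malat1, Neat1, Meg3, Miat, Rmst, Snhg11, Pantr1 and Kcnq1ot1. The 8 were chosen by gene symbol through their Ensembl identifiers, out of 55401 gene rows in the count table. The rule itself uses no measured value, but the choice was made with earlier results of these data known. RNA was sequenced from cells sorted out of the cortex or the hippocampus of CD51-Flp; Rosa-CAG-FSF-tdTomato mice, in which a Flp recombinase driven by CD51 (integrin alpha-v, the product of Itgav) turns on the red reporter tdTomato. Cells positive for both tdTomato and GFP make up the CD51+ class, and cells with GFP but no tdTomato make up the CD51- class. All groups share these alleles and the GFP gate. The driver of GFP and the age and number of the mice are not given in the sources used here. In all, 4 groups were compared, cortex CD51+, cortex CD51-, hippocampus CD51+ and hippocampus CD51-, with 3 libraries each (12 libraries). The labels do not say that replicates came from separate animals, so p-values measure only the spread between these libraries, which may be technical.

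Most of these RNAs act in the nucleus. Malat1 gathers in nuclear speckles, which hold splicing factors, and Neat1 is the RNA scaffold of the paraspeckle, a body built around RNA-binding proteins such as Sfpq. Meg3 and Kcnq1ot1 come from imprinted loci, where only 1 parental copy is transcribed. Miat is a nuclear RNA best known from neurons, Rmst is a neural RNA that binds the transcription factor Sox2, Pantr1 is transcribed away from the neural transcription factor gene Pou3f3, and Snhg11 is a host gene of small nucleolar RNAs.

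Total counts ran from 4351897 to 12847183 read pairs per library, and mitochondrial genes took 20.2% to 71.1% of them. Cortex CD51+ replicate 3 stood apart, with 58.37% of its counts in mitochondrial ribosomal RNA against 1.04% to 3.54% elsewhere. Itgav did not separate the classes: its edgeR log2 fold change, CD51+ minus CD51-, was 0.91 ± 0.55 (SE) in cortex (adjusted p = 0.269) and -0.04 ± 0.55 in hippocampus (adjusted p = 0.984). The library names carry G for CD51+ titles and GT for CD51- titles, which could point to the opposite classes, and every CD51 difference below would then change sign. CD51+ and CD51- therefore mean the libraries labelled so. The libraries also differed in markers of other cells, as the plot of marker sums shows. The summed level of 12 astrocyte markers (Slc1a2, Aqp4 and others) spanned 48400 to 65700 CPM (counts scaled to a library size of 1e+06) for CD51+ cortex, 3950 to 12400 for CD51- cortex, 41500 to 52200 for CD51+ hippocampus and 12700 to 14800 for CD51- hippocampus. Over 12 microglial markers the sums were 336 to 1000, 8120 to 11200, 205 to 1570 and 5200 to 7570 CPM in the same order, and over 10 oligodendrocyte markers 2720 to 2850, 33200 to 63800, 1250 to 4940 and 6880 to 37900 CPM. The oligodendrocyte sum was above the astrocyte sum in all 3 cortex CD51- libraries and in hippocampus CD51- replicates 1 and 2, so the CD51- libraries did not carry the marker pattern of the astrocyte label alone. Most of the oligodendrocyte sum in cortex CD51- was Mbp, at 24000, 25000 and 50800 CPM. Sums over different genes therefore do not rank the cell types by share. No microglial marker was without counts in either CD51- group, while Aif1 had none in cortex CD51+; of the oligodendrocyte markers only Mag had none, in cortex CD51+. In bulk libraries like these, fewer cells of a type and less RNA per cell cannot be told apart.

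**Figure D1:**
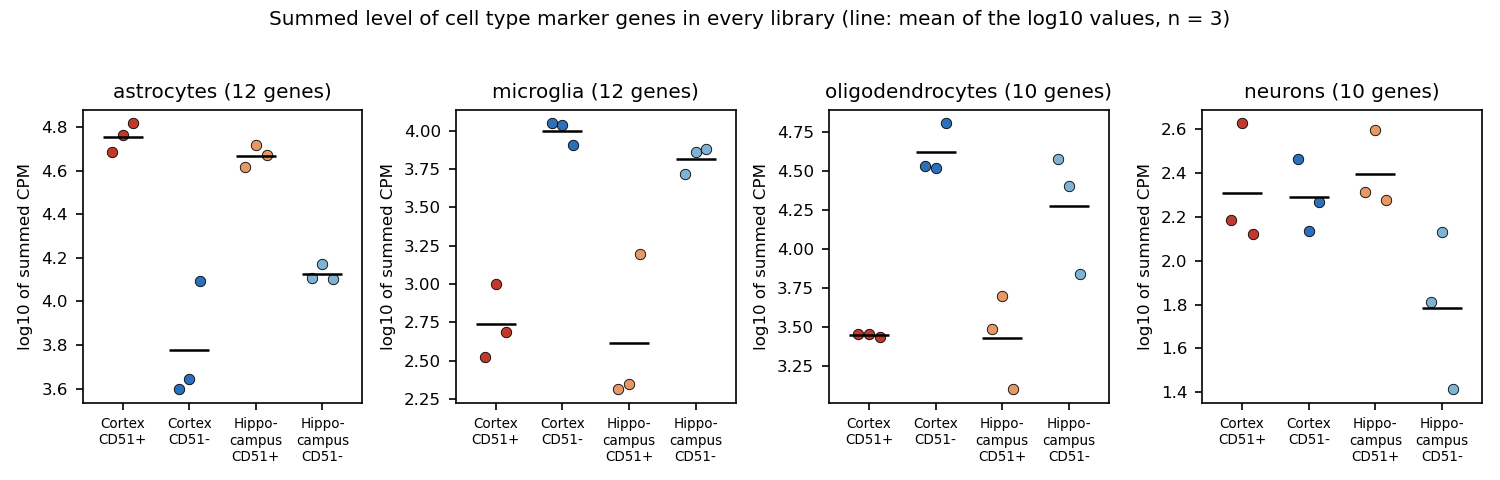
Summed CPM of fixed cell type markers (log10, vertical axis) in each library (dot) of the 4 groups, with the mean of the log10 values as a line. The astrocyte sum is higher, and the microglial and oligodendrocyte sums are lower, in every CD51+ library than in every CD51- library of the same region.

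The word abundant held for Malat1 more than for the rest. Per kilobase of exon, the median level over the 12 libraries was 1270 CPM per kb for Malat1, 20.4 for Neat1, 8.94 for Pantr1, 1.3 for Kcnq1ot1, 1.06 for Meg3, 0.745 for Rmst, 0.541 for Snhg11 and 0 for Miat. By CPM per kb Malat1 ranked between 3 and 23 among the tested non-mitochondrial genes of a library. Neat1 ranked between 224 and 3747, and the remaining members never came higher than 920, the rank of Pantr1 in hippocampus CD51+ replicate 2. Malat1, Neat1, Meg3, Snhg11, Pantr1 and Kcnq1ot1 had counts in all 12 libraries, Rmst in 9 and Miat in 5. All 8 passed the filter on low counts and were tested among 12613 genes.

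Between the CD51 classes, Neat1 was lower in the CD51+ libraries of both regions, Rmst and Pantr1 were higher in those of cortex, and Miat had no count in any CD51+ library. In cortex 2 members were called higher and 1 lower at an adjusted p under 0.05 (edgeR), where 5.05% of all tested genes were called higher and 6.27% lower. In hippocampus no member was called higher and 1, Neat1, was called lower, against 0.618% and 2.7% of all tested genes. Averaged over both regions, 2 members were called higher (Rmst and Pantr1) and 2 lower (Neat1 and Miat), against 8.87% and 13.9%. The median log2 fold change over the 8 members was -0.27 in cortex, 0.11 in hippocampus and -0.3 averaged, against -0.03, -0.22 and -0.14 over all tested genes. These medians were the same with Rmst and Miat, which had groups without counts, at their bounds. Malat1, Meg3, Snhg11 and Kcnq1ot1 were called in none of these comparisons.

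**Figure D2:**
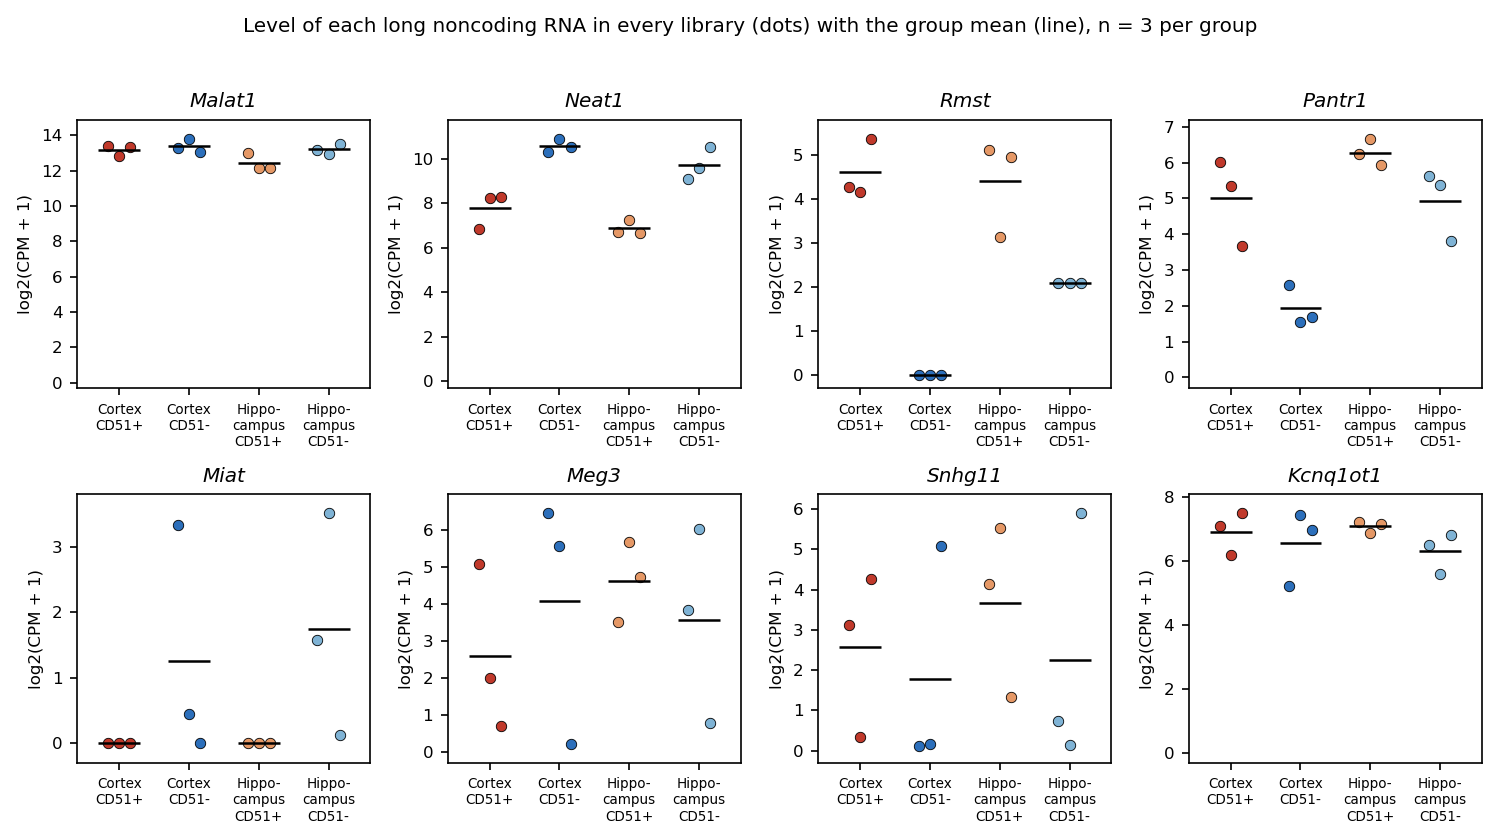
Level of each of the 8 RNAs as log2(CPM + 1) (vertical axis, own scale per panel) in the 3 libraries (dots) of each group, with the group mean as a line. Neat1 is lower in all CD51+ than in all CD51- libraries of a region, Rmst and Pantr1 are higher, and Meg3 and Snhg11 spread over several log2 units within a group.

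**Figure D3:**
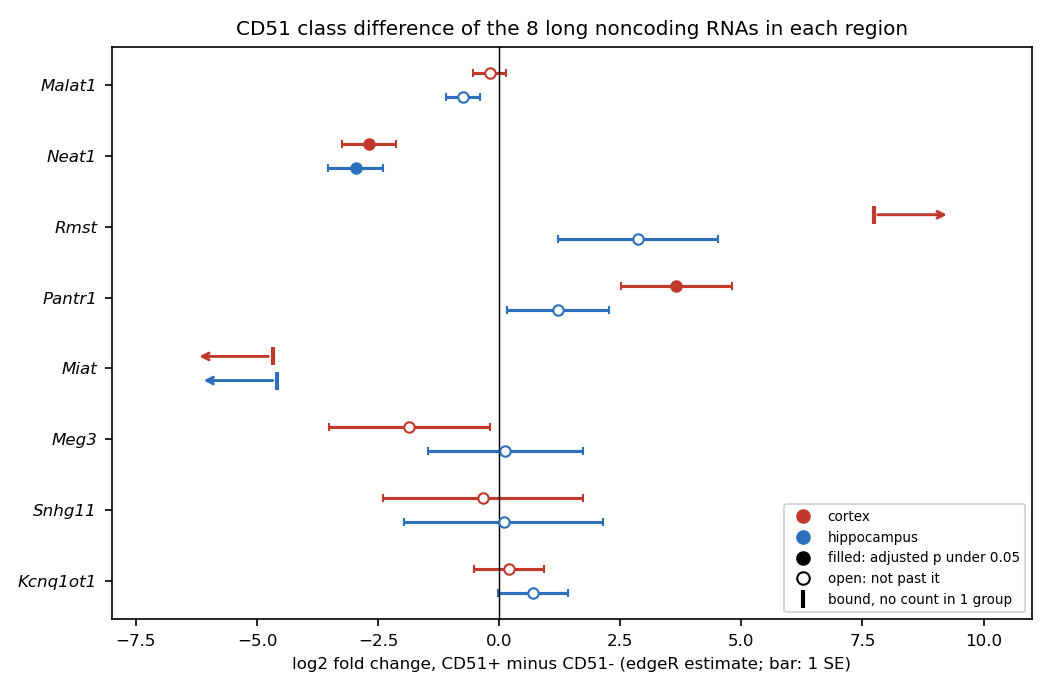
Log2 fold change, CD51+ minus CD51-, of each RNA in cortex and hippocampus, as the edgeR estimate with 1 SE, filled where the adjusted p is under 0.05. Arrows start at the bound set by 3 counts over a group without counts, for counting error only. Neat1 sits at -2.69 and -2.96, and Rmst in cortex lies beyond 7.73.

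Neat1 and Malat1 are unspliced neighbours on the minus strand of chromosome 19. In the mm10 coordinates of the count table, each as a single exon, Malat1 (ENSMUSG00000092341.3) spans chr19:5795690-5802672 and Neat1 (ENSMUSG00000092274.3) spans chr19:5824708-5845478. Neither long transcript relies on a poly(A) tail: both end in a genome-encoded element that folds into a triple helix, in which a pair of U-rich stretches clasp an A-rich tract. These elements are shown as the ends of the long transcripts. The counts are per gene and do not show how many reads came from transcripts with these ends. The sequences come from the GENCODE vM21 transcripts (GRCm38, minus strand, 5′ to 3′, DNA letters), with the U-rich stretches and the A-rich tract in capitals. The Malat1 element lies at chr19:5795982-5796075 and the Neat1 element at chr19:5824708-5824807, both exonic. The 3 capitalised stretches were located by searching both transcripts for the same letters, so they are alike by the search.
Malat1 element: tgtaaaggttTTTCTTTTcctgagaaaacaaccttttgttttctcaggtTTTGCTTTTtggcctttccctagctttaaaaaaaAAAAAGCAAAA
Neat1 element: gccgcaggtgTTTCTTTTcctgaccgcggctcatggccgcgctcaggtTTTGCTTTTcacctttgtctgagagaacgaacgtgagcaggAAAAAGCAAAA

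Neat1 was low in every CD51+ library. In cortex its level was 114, 298 and 305 CPM for CD51+ and 1250, 1890 and 1460 CPM for CD51-. In hippocampus it was 102, 153 and 99.8 CPM for CD51+ and 544, 768 and 1450 CPM for CD51-. The classes did not overlap in either region, which held for 16.6% of tested genes in cortex and 16.7% in hippocampus in this direction. Group means were 239 ± 108 CPM (SD, n = 3) in cortex CD51+, 1540 ± 323 in cortex CD51-, 118 ± 30 in hippocampus CD51+ and 922 ± 474 in hippocampus CD51-. The edgeR log2 fold change was -2.69 ± 0.56 (SE) in cortex (adjusted p = 0.00322), -2.96 ± 0.57 in hippocampus (adjusted p = 0.00315) and -2.82 ± 0.4 averaged (adjusted p = 2.78e-05). The difference between the 2 regional effects was -0.28 ± 0.74 (adjusted p = 0.962), and hippocampus against cortex gave -0.87 ± 0.37 (adjusted p = 0.265). Leaving out any 1 library kept the cortex value between -2.9 and -2.35 and the hippocampus value between -3.23 and -2.48, with adjusted p at most 0.025. Without the mitochondrial-rich cortex CD51+ replicate 3 both calls held. Microglial and oligodendrocyte marker sums were higher in both CD51- groups, as Neat1 was. Over hippocampus CD51- replicates 1, 2 and 3 the microglial sum was 5200, 7290 and 7570 CPM. The oligodendrocyte sum there was 37900, 25400 and 6880 CPM, falling while Neat1 rose. Cortex CD51- did not show this order. Its microglial sum was 11200, 10900 and 8120 CPM over replicates 1, 2 and 3, with Neat1 lowest in replicate 1. The oligodendrocyte sum in cortex CD51- was 33800, 33200 and 63800 CPM. The part of these sums in the Neat1 difference was not tested. The counts are per gene and do not separate the short from the long Neat1 isoform.

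Malat1 was among the highest genes in all libraries and its classes overlapped in both regions. Its level was 10900, 7150 and 10200 CPM in cortex CD51+ and 9790, 14100 and 8570 CPM in cortex CD51-. In hippocampus it was 8080, 4610 and 4450 CPM for CD51+ and 9150, 7870 and 11700 CPM for CD51-. Within a group the highest library was at most 1.82 times the lowest, and the order of the 4 group means (cortex CD51-, hippocampus CD51-, cortex CD51+, hippocampus CD51+) had overlapping neighbours throughout. It differed by a log2 fold change of -0.2 ± 0.35 (SE) in cortex (adjusted p = 0.75) and -0.74 ± 0.35 in hippocampus (adjusted p = 0.25, unadjusted p = 0.0457), by edgeR. Averaged over the regions it was -0.47 ± 0.25 (adjusted p = 0.18), and without the filter on low counts -0.6 (adjusted p = 0.0405). In cortex the sign turned to 0.04 without CD51- replicate 2.

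Setting Neat1 against Malat1 inside each library removes the scaling between libraries. Per kilobase, Neat1 reached 0.349%, 1.4% and 1.01% of Malat1 for CD51+ cortex and 4.31%, 4.49% and 5.74% for CD51- cortex. The hippocampal ratio was 0.426%, 1.12% and 0.755% in CD51+ and 2%, 3.28% and 4.19% in CD51-. The classes did not overlap in either region. The difference of the mean log2 ratios was -2.61 in cortex and -2.09 in hippocampus, and each gave a 2-sided exact permutation p of 0.1, the smallest that 3 against 3 libraries allow. With labels exchanged within both regions at once, the difference was -2.35 with an exact permutation p of 0.005, again the smallest possible over 400 arrangements. The ratio shows unequal change of these neighbours and not which of them changed. It is built from the same counts as the Neat1 and Malat1 levels above, so its p-values are not separate evidence.

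**Figure D4:**
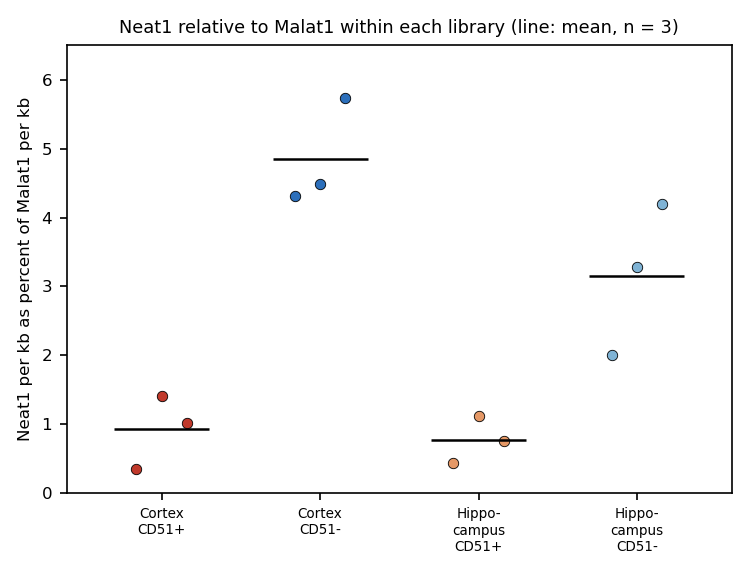
Neat1 per kilobase as a percentage of Malat1 per kilobase (vertical axis, from 0) in each library (dot), with the group mean (line, n = 3). The 6 CD51+ libraries lie between 0.349% and 1.4% and the 6 CD51- libraries between 2% and 5.74%.

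The proteins of the 2 nuclear bodies were read from lists. Of 15 paraspeckle protein genes, all tested, 0 were called higher and 4 lower in cortex, 0 and 1 in hippocampus, and 0 and 5 averaged over regions, where 6.27%, 2.7% and 13.9% of all tested genes were called lower and 5.05%, 0.618% and 8.87% higher. Their median log2 fold change was -1.61, -0.9 and -1.2, further below 0 than that of all tested genes (-0.03, -0.22 and -0.14). Hnrnph1, which regulates splicing, fell in the average by 2.85 on the log2 scale ± 0.44 (adjusted p = 6.89e-05, edgeR), and Sfpq, a core paraspeckle protein, fell by 1.83 ± 0.5 (adjusted p = 0.0121). Ewsr1, an RNA-binding protein gene, was also called lower (adjusted p = 0.0343). Of 15 genes for nuclear speckle and splicing proteins, 0 were called higher and 3 lower in cortex, 0 and 2 in hippocampus, and 0 and 5 in the average, with medians of -1.2, -0.88 and -1.09 and the same shares over all tested genes. Srsf3, a splicing factor of the SR family, fell by 3.09 ± 0.53 (adjusted p = 0.000272), and Srsf7, Srsf6 and Srsf2 of the same family were called lower too. For both lists the part of the marker differences between the classes was not tested. Around the Malat1 and Neat1 genes, none of the 5 tested of 6 listed neighbours was called, Frmd8 (4.2 kb beyond Neat1) among them.

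Rmst had no count in any cortex CD51- library. Its gene (ENSMUSG00000112117.1) lies on the minus strand at chr10:92071037-92165170 and its annotated exons sum to 7423 bases. The counts were 110, 131 and 200 in cortex CD51+ and 0, 0 and 0 in cortex CD51-, and 147, 58 and 179 in hippocampus CD51+ and 40, 35 and 36 in hippocampus CD51-. In CPM these were 18.5, 16.8 and 40.6 in cortex CD51+, 33.7, 7.78 and 30 in hippocampus CD51+, and 3.28, 3.25 and 3.26 in hippocampus CD51-. The classes did not overlap in either region, which held in this direction for 15.1% of tested genes in cortex and 10.5% in hippocampus. With the floor of 3 counts over the group, equal to 0.111 CPM in cortex CD51-, Rmst was at least 213-fold higher in cortex CD51+. This bound allows for counting error only and not for the spread between libraries. The edgeR adjusted p in cortex was 0.00637. In hippocampus the log2 fold change was 2.86 ± 1.65 (SE, adjusted p = 0.383), and averaged over regions the adjusted p was 0.00217. The 2 regional effects were not shown to differ by edgeR (adjusted p of the interaction = 0.204), while DESeq2 gave 0.0102. The cortex call held in all 23 alternatives, with adjusted p at most 0.0234. By group mean the order was cortex CD51+, hippocampus CD51+, hippocampus CD51- and cortex CD51-, and only the first 2 overlapped. Astrocyte marker sums were higher in the same libraries, and their part in the difference was not tested.

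Rmst is also the host of 2 microRNAs, which guide silencing complexes to messages that pair with their seed. The 5p arms are shown with the seed, bases 2 to 8, in capitals. They come from RefSeq (GRCm38.p6, minus strand) and lie at chr10:92072141-92072163 and chr10:92137190-92137210, and their seeds are not alike.
mmu-miR-135a-5p: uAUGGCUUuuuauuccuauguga
mmu-miR-1251-5p: aCUCUAGCugccaaaggcgcu
These long-RNA libraries count the hairpin regions as rows of their own and do not measure the mature arms. The Mir135a-2 row held 0, 0, 8 and 19 counts over cortex CD51+, cortex CD51-, hippocampus CD51+ and hippocampus CD51-, and the Mir1251 row held 0, 0, 20 and 0. All annotated rows inside Rmst summed to 34, 0, 54 and 114 counts in the same order. Per library depth these sums were 1.82, 0, 3.04 and 3.35 CPM. Cortex CD51- again had none. The cortex CD51+ sum rests on a single library: without replicate 2 it was 0.276 CPM. Without replicate 1 the hippocampus CD51+ sum was 1.94 and the hippocampus CD51- sum 1.6 CPM. Reads shared between Rmst and such rows, which cover 12.47% of its exon bases, were left out of both, per the counting options in the file header.

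Pantr1 followed the same direction at a higher level. Its gene (ENSMUSG00000060424.14) lies on the minus strand at chr1:42590782-42694842. In cortex it stood at 64.3, 39.4 and 11.8 CPM for CD51+ and 4.98, 1.92 and 2.19 CPM for CD51-. In hippocampus it stood at 74.6, 101 and 60.5 CPM for CD51+ and 48.8, 40.3 and 13 CPM for CD51-. The classes did not overlap in either region, as for 15.1% of tested genes in cortex and 10.5% in hippocampus in this direction. The edgeR log2 fold change was 3.66 ± 1.15 (SE) in cortex (adjusted p = 0.0421), 1.21 ± 1.05 in hippocampus (adjusted p = 0.621) and 2.43 ± 0.77 averaged (adjusted p = 0.0258), with an interaction of -2.45 ± 1.48 (adjusted p = 0.515). The cortex call was close to the threshold. It was lost without any 1 library other than cortex CD51+ replicate 3 or hippocampus CD51- replicate 3, with adjusted p from 0.0528 (without hippocampus CD51+ replicate 3) to 0.116 (without cortex CD51+ replicate 1). Astrocyte marker sums were higher in the same libraries, and their part in the difference was not tested. The cortex call was also lost with limma-voom (0.0827), with no filter (0.0986) and with the cortex libraries alone (0.198). The averaged call was lost without cortex CD51+ replicate 1 (0.0679), hippocampus CD51+ replicate 2 (0.0635), hippocampus CD51- replicate 2 (0.054) or hippocampus CD51- replicate 3 (0.074), and with no filter (0.076).

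Pou3f3, whose annotated start lies 83 bases from that of Pantr1 on the opposite strand, encodes a POU-domain transcription factor of neural development. It stood at 119, 268 and 203 CPM in cortex CD51+ and 13.6, 43.7 and 12.5 CPM in cortex CD51-. In hippocampus it stood at 236, 315 and 137 CPM for CD51+ and 36.2, 36 and 36.5 CPM for CD51-. Its classes did not overlap in either region (15.1% of tested genes in cortex and 10.5% in hippocampus in this direction). The log2 fold change was 3.08 ± 0.76 in cortex (adjusted p = 0.0114, edgeR), 2.66 ± 0.75 in hippocampus (adjusted p = 0.0507) and 2.87 ± 0.54 averaged (adjusted p = 0.000558). The lncRNA Pantr2, from the same locus, had 15, 22 and 2 counts in cortex CD51+, none in cortex CD51-, 34, 25 and 39 in hippocampus CD51+ and 84, 2 and 0 in hippocampus CD51-, and was not called (averaged adjusted p = 0.0816). Counting did not use strand, but no exon base of Pantr1 is shared with another annotated gene.

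Hippocampus against cortex, averaged over the classes, called none of the 8 members, where 0.19% of tested genes were called. The unadjusted p was under 0.05 for 3 members and for 15.1% of all tested genes. Pantr1 gave a log2 fold change, hippocampus minus cortex, of 2.26 ± 0.77 (SE, adjusted p = 0.154, edgeR), and Rmst an adjusted p of 0.143. DESeq2 called both higher in hippocampus, with an adjusted p of 0.0105 for Pantr1 and 0.01 for Rmst. In CD51+ libraries Rmst was not higher in hippocampus, at 23.8 ± 14 CPM (SD, n = 3) against 25.3 ± 13.3 in cortex. Its region difference lay in the CD51- libraries, with means of 3.27 CPM in hippocampus and 0 in cortex. No fitted fold is given for Rmst, since it had no count in cortex CD51-. No tested gene passed in the interaction (0%), although 1583 had an unadjusted p under 0.05.

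Miat was counted only in libraries labelled CD51-. Its gene (ENSMUSG00000097767.8) lies on the minus strand at chr5:112213228-112229395. The counts were 0, 0 and 0 in cortex CD51+, 108, 3 and 0 in cortex CD51-, 0, 0 and 0 in hippocampus CD51+, and 24, 113 and 1 in hippocampus CD51-. The classes overlapped in cortex, where a CD51- library was also at 0, and not in hippocampus (16.7% of tested genes there in this direction). With the floor of 3 counts over a group, the level in CD51+ was at least 25.5-fold lower in cortex and at least 24.1-fold lower in hippocampus. These bounds allow for counting error only and not for the spread between libraries. Without cortex CD51- replicate 1 only 3 counts were left in cortex, which gives no fold, and without hippocampus CD51- replicate 2 the hippocampal bound was 6.38-fold. By edgeR the adjusted p was 0.105 in cortex, 0.175 in hippocampus and 0.0185 averaged over regions, and by limma-voom the averaged adjusted p was 0.076. The averaged edgeR call held without any 1 library, with adjusted p from 0.0127 to 0.0462. Microglial and oligodendrocyte marker sums were higher in both CD51- groups, and their part in the difference was not tested. Of its exon bases 30.43% are shared with other annotated genes, mostly Gm26953 on the opposite strand, and, per the counting options, read pairs on shared bases were not counted. How many that left out was not measured. Cryba4, a crystallin gene 17.1 kb beyond Miat, also had no count in any CD51+ library, with 115, 3 and 9 counts in cortex CD51- and 0, 0 and 92 in hippocampus CD51- (averaged adjusted p = 0.0225, edgeR). Crybb1, another crystallin gene of that locus, held 187, 3062 and 324 counts in cortex CD51- and 83, 74 and 89 in hippocampus CD51-, against at most 1 count in a CD51+ library. The summed level of 10 neuronal markers spanned 132 to 423 CPM for CD51+ cortex, 137 to 291 for CD51- cortex, 190 to 396 for CD51+ hippocampus and 25.9 to 135 for CD51- hippocampus. Within the CD51- groups the neuronal sum was highest in the library with most Miat counts. It was 291 CPM in cortex replicate 1 (137 and 185 in the others) and 135 CPM in hippocampus replicate 2 (65 and 25.9 in the others). Most of it was Snap25, at 261 and 94.4 CPM in those libraries. Stmn2 was also highest in them (5.57 and 10.9 CPM). Rbfox3 was highest in other CD51- libraries, at 80.2 CPM in cortex replicate 3, where Miat had no count, and 12.5 CPM in hippocampus replicate 1. The part of neuronal RNA in the Miat counts was not tested.

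Meg3 varied more between replicates than between classes. Its gene (ENSMUSG00000021268.17), which is expressed from the maternal chromosome, lies on the plus strand at chr12:109541001-109571726. The level was 32.9, 2.95 and 0.609 CPM in cortex CD51+ and 86.2, 46.3 and 0.146 CPM in cortex CD51-. In hippocampus it was 10.3, 50 and 25.3 CPM for CD51+ and 13.2, 64.6 and 0.724 CPM for CD51-. All 4 groups overlapped. In counts, cortex CD51- ran from 1022 down to 1. The fitted log2 fold change was -1.86 ± 1.66 (SE) in cortex (adjusted p = 0.482, edgeR) and 0.13 ± 1.61 in hippocampus (adjusted p = 0.985), and the hippocampus sign changed with 3 of the left-out libraries. In the same imprinted domain, Rian, a maternally expressed lncRNA 32.1 kb beyond Meg3, held 34, 6 and 23 counts in cortex CD51+, 426, 197 and 156 in cortex CD51-, 16, 175 and 35 in hippocampus CD51+ and 195, 644 and 4 in hippocampus CD51-. Both RNAs were high in hippocampus CD51- replicate 2 and low in replicate 3, but in cortex CD51- replicate 3 Rian had 156 counts and Meg3 had 1. Of 7 listed genes of the domain only Rian and Wars were tested, and neither was called. The paternally expressed Dlk1 held 75 and 16 counts in hippocampus CD51+ replicates 1 and 2, 1 count in hippocampus CD51- replicate 2 and none in the other libraries.

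The Meg3 start is printed because, of the 6 RefSeq windows found for 5 of the 8 RNAs (GRCm38.p6, 250 bases before to 50 after a start), it held the most kinds of the 5 motifs searched. The entries cover Malat1, Meg3 (2 starts), Miat, Snhg11 and Kcnq1ot1. Both strands of 32851 such windows were searched. The AP-1 letters TGANTCA occurred in 7.81% of them, the letters TGACGTCA of the cAMP response element (CRE) in 1.79%, and the TATA box letters TATAAA in 13.6%. A CCAAT box was found in 37.4% of windows, and the GC box letters GGGCGG in 35.7%. The Meg3 window at chr12:109540746-109541045 (plus strand, capitals mark the matches) holds CCAAT, the CRE letters, and TATAAA on both strands in overlapping positions.
Meg3 promoter: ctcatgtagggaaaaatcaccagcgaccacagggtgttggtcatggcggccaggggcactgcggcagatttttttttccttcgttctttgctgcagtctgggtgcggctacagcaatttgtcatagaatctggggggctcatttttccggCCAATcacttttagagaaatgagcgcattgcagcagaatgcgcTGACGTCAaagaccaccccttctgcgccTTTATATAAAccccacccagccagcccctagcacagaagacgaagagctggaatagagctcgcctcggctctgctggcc
The Kcnq1ot1 window at chr7:143296498-143296797 (minus strand) is shown for its 3 CCAAT matches, in capitals.
Kcnq1ot1 promoter: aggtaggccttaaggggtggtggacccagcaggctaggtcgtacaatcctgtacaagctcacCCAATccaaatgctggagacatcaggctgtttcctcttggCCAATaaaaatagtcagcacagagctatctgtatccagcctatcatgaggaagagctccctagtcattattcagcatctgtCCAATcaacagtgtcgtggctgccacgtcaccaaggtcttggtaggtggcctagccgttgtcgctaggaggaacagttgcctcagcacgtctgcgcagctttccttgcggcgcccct
The Miat window had 1 GC box match, and the Malat1, Snhg11 and second Meg3 windows had none of the 5 motifs. These matches are descriptions of the letters and were not tested against the levels.

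Snhg11 was the least even of the 8 RNAs. Its gene (ENSMUSG00000044349.16) lies on the plus strand at chr2:158375638-158386151. The level was 7.72, 0.256 and 18.3 CPM in cortex CD51+ and 0.0844, 0.12 and 32.8 CPM in cortex CD51-. In hippocampus it was 16.7, 45.1 and 1.51 CPM for CD51+ and 0.657, 0.0929 and 58.6 CPM for CD51-. In each CD51- group a single library, replicate 3, held nearly all the counts (225 and 647), and the other libraries there had at most 8. Those 2 libraries had 1 and 8 counts of Meg3. In hippocampus CD51+, by contrast, replicate 2 had the most counts of both, 336 of Snhg11 and 373 of Meg3. No group stood apart, and the edgeR log2 fold change was -0.33 ± 2.07 (SE) in cortex (adjusted p = 0.945) and 0.09 ± 2.06 in hippocampus (adjusted p = 0.992). Without cortex CD51- replicate 3 the cortex value became 6.17 (adjusted p = 0.139), and without hippocampus CD51- replicate 3 the averaged value went from -0.12 to 2.73 (adjusted p = 0.274).

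The evenness of the 8 RNAs differed. The range within a group in log2(CPM + 1), averaged over the 4 groups, was 0.69 for Malat1, 0.8 for Rmst, 1.01 for Neat1, 1.28 for Kcnq1ot1, 1.49 for Pantr1, 1.68 for Miat, 4.52 for Meg3 and 4.72 for Snhg11. The median over all 12613 tested genes was 2.19, and over the 9222 with a mean of at least 5 CPM it was 2.38. Groups without counts have a range of 0. Over the groups with counts only, the value was 1.07 for Rmst (3 groups) and 3.37 for Miat (2 groups). The biological coefficient of variation of the fit was 1.28, so differences of a few log2 units could be missed for RNAs as uneven as Meg3 and Snhg11.

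Kcnq1ot1 had at least 434 counts in every library and was not called in any comparison. It is a long unspliced antisense RNA that represses the imprinted genes around it on the paternal chromosome. Its gene (ENSMUSG00000101609.2) lies on the minus strand at chr7:143203458-143296549, inside Kcnq1 on the opposite strand. The level was 137, 71.7 and 179 CPM in cortex CD51+, 36.6, 174 and 125 CPM in cortex CD51-, 150, 117 and 142 CPM in hippocampus CD51+ and 90.3, 48 and 112 CPM in hippocampus CD51-. The classes overlapped in cortex and did not in hippocampus, where the lowest CD51+ and highest CD51- libraries were 117 and 112 CPM. In hippocampus 10.5% of tested genes did not overlap in this direction. The fitted log2 fold change was 0.21 ± 0.72 (SE) in cortex (adjusted p = 0.889, edgeR) and 0.7 ± 0.73 in hippocampus (adjusted p = 0.7). Kcnq1 itself had no count in any library, so these unstranded counts held no detected Kcnq1 signal. Of 10 listed genes of the domain 4 were tested. Cd81, a membrane tetraspanin, rose by 1.06 ± 0.36 on the log2 scale in CD51+ averaged over regions (adjusted p = 0.0351). The growth inhibitor Cdkn1c, a known target of the silencing, had 0, 0 and 0 counts in cortex CD51+, 178, 2 and 0 in cortex CD51-, 1, 0 and 14 in hippocampus CD51+ and 161, 104 and 2 in hippocampus CD51- (averaged adjusted p = 0.0518).

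The genes lying nearest to the 8 RNAs gave 14 tested genes. In cortex 1 of the 14, Pou3f3, was called higher, in hippocampus none was called, and averaged over regions 1 was called higher (Pou3f3) and 2 lower (Cryba4 and Il1rl2). With 14 genes these counts lie near the background of 5.05% called higher in cortex and of 8.87% higher and 13.9% lower averaged. Il1rl2, an interleukin receptor gene 2223.2 kb from Pantr1, had no count in CD51+ libraries and 105, 236 and 1 counts in cortex CD51- and 33, 22 and 106 in hippocampus CD51- (averaged adjusted p = 0.00779, edgeR).

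Genes with the most similar profile over the 12 libraries were found by the root mean square difference of centred log2(CPM + 1), among 8588 genes with a mean of at least 5 CPM. For Neat1 the nearest was Jmjd1c, a chromatin demethylase-family gene, with a difference of 0.21 where Neat1 itself varied by 1.55 around its mean. Jmjd1c stood at 202, 307 and 471 CPM in cortex CD51+, 1850, 2260 and 2010 in cortex CD51-, 115, 195 and 124 in hippocampus CD51+ and 866, 978 and 1910 in hippocampus CD51-, and was called lower in CD51+ in both regions (adjusted p = 0.00189 and 0.00113, edgeR). Picalm, an endocytosis adaptor, was also among the nearest (0.47). For Rmst the nearest were Galnt16 (0.66), a glycosyltransferase gene that also had no count in cortex CD51-, then Farp1 (0.67) and Lgi1 (0.73), a secreted synaptic protein gene, against a variation of 1.95 for Rmst. For Malat1 they were Lamp2 (0.31), Son (0.33), which encodes a nuclear speckle protein, and Dst (0.34), where Malat1 varied by 0.48.

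For Pantr1 they included Mrpl43 (0.68) and the clock repressor gene Nr1d1 (0.72), and for Kcnq1ot1 they were Grina (0.44), Lmbrd2 (0.51) and the histone methyltransferase gene Ash1l (0.53). For Miat they were Gbp5 (0.61), Ccar1 (0.74) and Rps6-ps4 (0.75). Meg3 had Pigu (1.03), Snx17 (1.14) and Pou6f1 (1.17), and Snhg11 had Sdr42e1 (1.05), Cpt2 (1.24) and Gss (1.26). All of these likenesses are over the same 12 libraries and are descriptions.

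**Figure D5:**
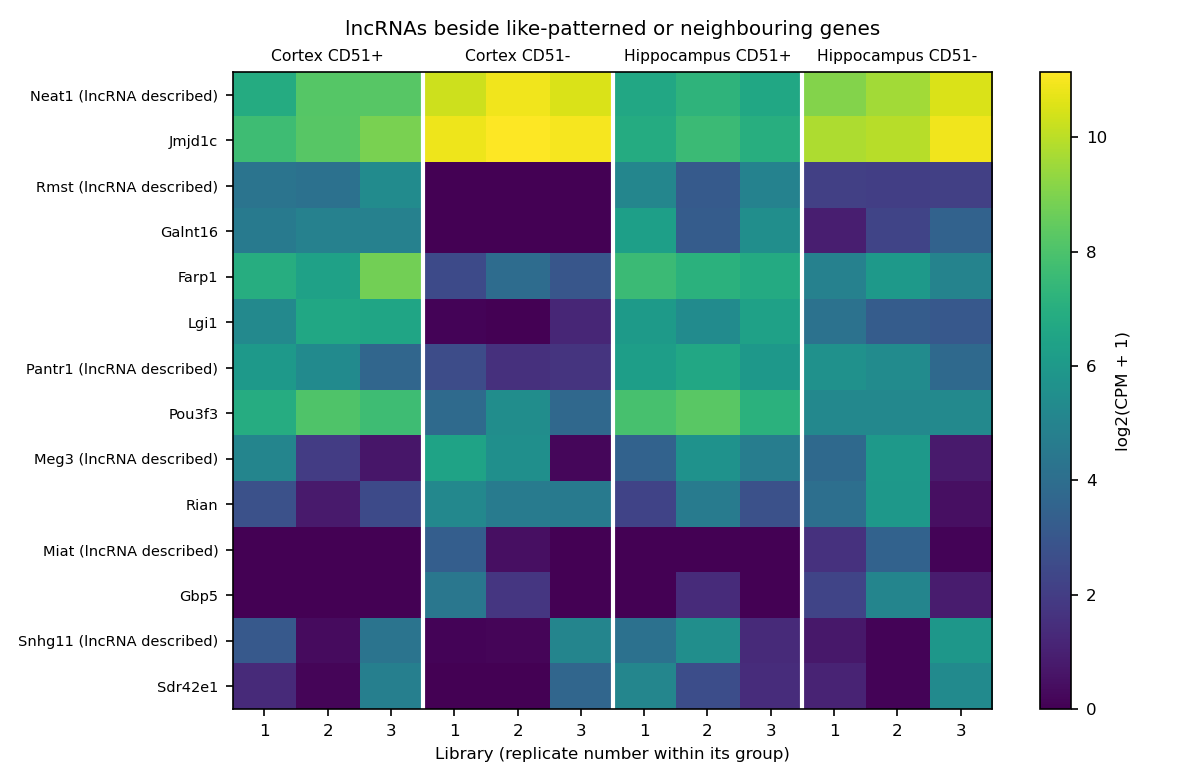
Level as log2(CPM + 1) (colour) of 6 of the RNAs and of genes with a like profile or from the same locus, in 12 libraries (columns, by group and replicate number). Neat1 and Jmjd1c are brightest in CD51- libraries, Rmst and Galnt16 are at 0 in cortex CD51-, and Snhg11 is bright in replicate 3 of both CD51- groups.

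Other lncRNAs were read from a list of 59, of which 12 were called lower in CD51+ averaged over regions. Of the list 52 were in the table and 36 were tested. In cortex 0 were called higher and 3 lower, in hippocampus 0 and 3, and averaged over regions 1 and 12. Over all tested genes 5.05% were called higher and 6.27% lower in cortex, 0.618% and 2.7% in hippocampus, and 8.87% and 13.9% averaged. The median log2 fold change of the 36 was -1.51, -1.45 and -1.29, also with the genes that had no count in a group at their bounds, against -0.27, 0.11 and -0.3 for the 8 members. Microglial and oligodendrocyte marker sums were lower in the same libraries, and their part in this was not tested. Dleu2, a host gene of miR-15a and miR-16-1, fell by 3.95 ± 0.67 on the log2 scale in the average (adjusted p = 0.000226, edgeR), from 217 ± 123 CPM (SD, n = 3) in cortex CD51- to 21 ± 25.4 in cortex CD51+ and from 146 ± 40 to 6.3 ± 3.9 in hippocampus. Xist, the RNA that coats the inactive X chromosome, fell by 1.62 ± 0.34 (adjusted p = 0.00185). The sex of the mice was not part of the fit, and its part in the Xist difference was not tested. Snhg1, a small nucleolar RNA host, was at 0 in all cortex CD51+ libraries and at 114, 483 and 880 counts in cortex CD51-. In hippocampus Snhg1 overlapped, with 113, 27 and 4 counts for CD51+ and 340, 8 and 263 for CD51- (adjusted p = 0.86). Mir22hg, the host of miR-22, fell by 5.79 ± 1.37 in the average (adjusted p = 0.00446). The 1 called higher was Mir9-3hg, a host gene of miR-9, named after its value was seen, at 4.75 ± 1.55 (adjusted p = 0.0299).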

How the data were processed

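RNA of sorted cells labelled astrocytes was measured in 12 libraries. Per the labels' protocols, libraries were made from 10 ng RNA and sequenced as paired 150-base reads. The table holds raw counts, made with featureCounts 2.0.4 from primary-aligned read pairs over GENCODE vM25 exons, per gene and without strand, per the file headers. Per the submitters' processing notes, STAR, mm10 and DESeq2 1.40.2 were used. Symbols were found for 55141 of 55401 gene IDs (GENCODE vM21 names). Exon lengths are those the authors deposited.

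Genes were kept with filterByExpr (minimum count 10, total 15). edgeR 4.0.16 (R 4.3.3) fitted 1 quasi-likelihood model with 4 groups and TMM factors (common dispersion 1.64), adjusted by Benjamini-Hochberg over 12613 genes. The fit was tested on simulated data. CPM uses TMM-scaled sizes, and CPM values are mean ± SD. A group without counts is given the floor of 3 counts, for counting error only. Same-numbered libraries of different groups did not deviate together (r from -0.05 to 0.03 over 18 pairs). The 36 other pairs gave r from -0.04 to 0.06. Spread between libraries could hide a shared source, so whether the numbers pair libraries is not settled. Alternatives were DESeq2 1.42.0, limma-voom (limma 3.58.1), other scalings and filters, a replicate block, each region alone, and each library left out.

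Named genes are the 8 RNAs, Itgav, at most 4 genes per list by averaged edgeR p, nearest tested neighbours and the 3 genes of most similar profile per RNA. The 8 RNAs, the lists and this rule were chosen with earlier results of these data known. Some genes under this rule are not reported here. Genes named outside it are marked or are counts of a listed locus. Promoter and microRNA sequences are from RefSeq (GRCm38.p6). Promoter entries for Neat1, Rmst and Pantr1 were not used here. Figures were drawn with matplotlib 3.10.9 (Python 3.11.15).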

Additional observations from a re-analysis of the deposited data

How the results depend on the processing

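Of 852 values of single RNAs under 24 alternatives, 789 kept their direction and side of the threshold, 20 fell below it, 4 passed it and 39 changed sign, none of the last with an adjusted p under 0.05. The Neat1 calls in cortex, in hippocampus and averaged, and the Rmst calls in cortex and averaged, held throughout. Members called higher in cortex went from 2 to 1 with limma-voom, no filter, cortex libraries alone and the replicate block (Pantr1, adjusted p = 0.0665 under the block), and ranged from 1 to 2 over left-out libraries. Averaged over regions, those called higher went from 2 to 1 with no filter and ranged from 1 to 2 over left-out libraries, and those called lower went from 2 to 1 with limma-voom and to 3 with no filter (Malat1, adjusted p = 0.0405). DESeq2 called 2 members higher in hippocampus than cortex and 1 lower in the interaction, where edgeR called 0. The block changed no other call of a member. The cause of these changes was not tested. Upper-quartile scaling shifted the median of all tested genes by 0.12 in cortex, 0.22 in hippocampus and 0.17 averaged (log2).

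Snhg11 in cortex became 1.9 with limma-voom and 2.62 with the replicate block, and ranged from -1.46 to 6.17 over left-out libraries. In hippocampus it became -0.08 with no filter, -0.07 without mitochondrial genes and -0.02 with hippocampus libraries alone, with a range of -1.12 to 5.76. Averaged it became 2.27 with limma-voom, 0.03 with upper-quartile factors and 4.07 with the block, with a range of -0.72 to 3.06, from -1.77 to 4.38 between regions and from -6.23 to 6.07 for the interaction. Meg3 averaged became 0.4 with the block, and over left-out libraries ranged from -2.24 to 0.09 averaged, from -0.55 to 2.03 in hippocampus and from -0.72 to 1.61 between regions. Kcnq1ot1 ranged from -0.21 to 0.68 in cortex and from -0.38 to 0.06 between regions, where limma-voom gave 0.08. Malat1 in cortex ranged from -0.42 to 0.04, and the Neat1 interaction from -0.61 to 0.26. Miat, Rmst, Meg3 and Snhg11 had 3 or fewer counts in some libraries, which limits what can be read from their folds.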
